A study of Mus musculus with 6 samples.

Results

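A group of 10 targets of the hypoxia-inducible factors (HIFs) were followed in mouse glomeruli after deletion of Vhl in podocytes: the transcriptional repressors Bhlhe40, Bhlhe41 and Mxi1, the histone demethylases Kdm3a, Kdm4b and Kdm4c, the ankyrin-repeat protein gene Ankrd37, the mTORC1 inhibitor gene Ddit4, the endoplasmic reticulum (ER) oxidase gene Ero1a and the lipoprotein receptor gene Vldlr. The members were all probe sets whose array annotation carried any of these 10 gene symbols. All 10 genes were found on the array, with 19 probe sets among 45037 that were not controls. Of the 19 probe sets, 15 passed the filter on low values, and they represented 8 of the 10 genes. Bhlhe41 and Ankrd37 lay below that filter with every probe set.

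The study hybridised glomerular RNA of 6 mice to Affymetrix arrays, 1 array for each mouse, with 3 wild-type littermate controls and 3 mice with podocyte-specific deletion of Vhl. Glomeruli were isolated by perfusion with magnetic beads at 6 weeks of age, and all animals were female. The Vhl-deleted mice, called Pod-Cre fVHL in the labels, carried a Cre transgene driven by the podocin promoter and came from parents with a single copy of that transgene and floxed Vhl on both chromosomes. The labels call the controls wildtype and give neither their Vhl alleles nor their Cre status beyond that. Urine was taken at 4 weeks, and Vhl-deleted mice were chosen only if their albumin did not exceed the average of their wild-type littermates, so the animals had no proteinuria at that age. The podocin promoter directs Cre to podocytes, so that mesangial, endothelial and other cells of the isolated tissue should keep their own Vhl. Deletion in each cell type was not measured here. The labels call the arrays of a group biological replicates, and they are named below by group and replicate number.

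VHL is the substrate-recognition subunit of a ubiquitin ligase that marks HIF alpha subunits for degradation once prolyl hydroxylases have modified them in the presence of oxygen. Loss of VHL therefore stabilises HIF at normal oxygen, and HIF dimers bind a short core sequence, the hypoxia response element, near genes of glycolysis, angiogenesis and adaptation to low oxygen. The genes followed here belong to the less familiar side of that programme. Some of them encode repressors or chromatin enzymes that act on further genes, and others act on growth signalling, protein oxidation and lipid uptake.

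The labelled tissue was checked against its markers. Podocyte markers were bright, and 23 of the 26 listed were tested, with a summed signal of 171486 to 220291 in the wild-type mice and 158719 to 190165 in the mice lacking podocyte Vhl. Their log2 differences were negative for 16 and positive for 7, with a median of -0.15, and none had an adjusted p below 0.05. In 3 of the 23 every Vhl-deleted array lay below every wild-type array (5.64% of all genes), and in 1 above (5.04%). Tubule markers were bright as well, with 26 of 28 tested and none near 0 (the lowest value in any array was 131, for Cldn16). Their summed signal was 65137 in wild-type replicate 3 and 152584 to 242025 in the other 5 arrays. Leukocyte markers, with 11 of 18 tested, summed to 5522 to 8094 in the 3 control arrays, against 9449 to 13820 in the 3 arrays after Vhl deletion, without overlap. Their log2 differences were positive for 10 and negative for 1, and none had an adjusted p below 0.05. In 6 of the 11 every Vhl-deleted array lay above every wild-type array (5.04% of all genes), so the sum does not hold for each marker. Vhl itself read 809, 665 and 707 in controls and 611, 619 and 606 when podocyte Vhl was deleted. The log2 difference was -0.23 (adjusted p = 0.944), and by design most cell types of the tissue should keep the gene. For Vhl, every Vhl-deleted array lay below every wild-type array, which held for 5.64% of all genes tested. In whole glomeruli, fewer cells of a type and less RNA per cell cannot be told apart.

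The upstream promoter sequences of 4 members are shown first, because these genes differ in their results. By the brightest probe set, the groups of Ankrd37 and Ero1a did not overlap, and those of Ddit4 and Kdm3a did. The groups of Mxi1, which is not shown, did not overlap either. Each line gives the 250 bases before the annotated RefSeq start on GRCm38.p6, 5′ to 3′ along the gene, which lies on the minus strand in all 4 cases. Capitals mark every match to the core of the hypoxia response element, ACGTG or GCGTG, on either strand (read as CACGT or CACGC where it lies on the opposite strand). The windows were chr8:45999851-46000100 for Ankrd37, chr14:45318573-45318822 for Ero1a, chr10:59951771-59952020 for Ddit4 and chr6:71632918-71633167 for Kdm3a.
Ankrd37: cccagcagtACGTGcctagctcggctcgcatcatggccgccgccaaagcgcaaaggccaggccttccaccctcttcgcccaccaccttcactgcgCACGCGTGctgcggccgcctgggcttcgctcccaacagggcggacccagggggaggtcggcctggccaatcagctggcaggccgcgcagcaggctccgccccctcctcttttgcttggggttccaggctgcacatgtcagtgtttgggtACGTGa
Ero1a: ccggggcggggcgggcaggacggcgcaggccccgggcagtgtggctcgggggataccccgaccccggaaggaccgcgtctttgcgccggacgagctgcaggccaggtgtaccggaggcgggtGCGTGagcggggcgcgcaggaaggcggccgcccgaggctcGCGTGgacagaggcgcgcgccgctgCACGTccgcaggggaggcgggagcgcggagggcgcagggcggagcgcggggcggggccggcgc
Ddit4: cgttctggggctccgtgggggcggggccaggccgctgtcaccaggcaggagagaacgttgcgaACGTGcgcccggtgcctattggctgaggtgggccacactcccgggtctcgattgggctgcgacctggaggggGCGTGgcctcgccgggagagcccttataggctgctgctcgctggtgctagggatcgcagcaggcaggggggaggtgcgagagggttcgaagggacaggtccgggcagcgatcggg
Kdm3a: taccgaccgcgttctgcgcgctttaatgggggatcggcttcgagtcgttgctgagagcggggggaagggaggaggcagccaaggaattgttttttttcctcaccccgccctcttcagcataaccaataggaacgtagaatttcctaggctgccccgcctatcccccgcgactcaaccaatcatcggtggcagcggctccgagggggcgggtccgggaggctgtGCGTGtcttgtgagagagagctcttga

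Ankrd37 held 4 matches, starting at positions -241, -155, -152 and -6 from the transcript start, Ero1a held 3 (-128, -88 and -63), Ddit4 held 2 (-187 and -115) and Kdm3a held 1 (-27). Kdm3a has 3 annotated starts, of which the first is shown, and the windows of the other two held 0 matches. Over 32851 such windows of all genes in the RefSeq table, 38.6% held at least 1 match, 16.7% at least 2 and 6.58% at least 3. The table had entries for 8 of the 10 members, Bhlhe40 and Kdm4b being the other two, with 14 windows in all. A match was present in 8 of these 14 windows, from 7 of the 8 genes, and 41.5% of all 27025 genes had a match in at least 1 window. The members had more windows per gene (14 for 8 genes) than all genes (32851 for 27025), which raises their share of genes with a match. Among members not shown, the second start of Kdm4c held 6 matches (its first 0) and Bhlhe41 held 4. Mxi1 held 0, 1 and 1 in its 3 windows, and neither window of Vldlr held any. By the brightest probe set of each gene, the groups of Kdm4c overlapped and those of Mxi1 did not. Any relation between the number of matches and the group differences was not tested. The palindrome CACGTG, which is both the E-box bound by basic helix-loop-helix repressors and a pair of overlapping matches to the core on opposite strands, was present in 6.02% of all windows and in 2 of the members' windows (1 of Bhlhe41 and 1 of Kdm4c). A match in these windows is a description of sequence and does not show a bound site.

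No member passed the test between Vhl-deleted and wild-type arrays (limma with Benjamini-Hochberg adjustment over 11159 genes, threshold 0.05). Of all genes tested 0.0807% passed in either direction and 0.0717% passed as higher in Vhl-deleted arrays. Values were compared as log2(signal + 28), and every fold given below is on that scale unless it is called a ratio of mean signals. Of the 8 tested members, 5 had a positive difference and 3 a negative one, and their median was 0.15 against 0.0043 over all genes. A single member, Ero1a, had an unadjusted p below 0.05, as did 4.92% of all genes. In 2 of the 8, Ero1a and Mxi1, every Vhl-deleted array lay above every wild-type array, against 5.04% of all genes, and no member had the groups apart in the other direction, against 5.64%. Genes whose groups did not overlap in either direction made up 10.7%. The median rests partly on wild-type replicate 3, since it was 0.08 without that array, and it was 0.04 with array weights.

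**Figure D1:**
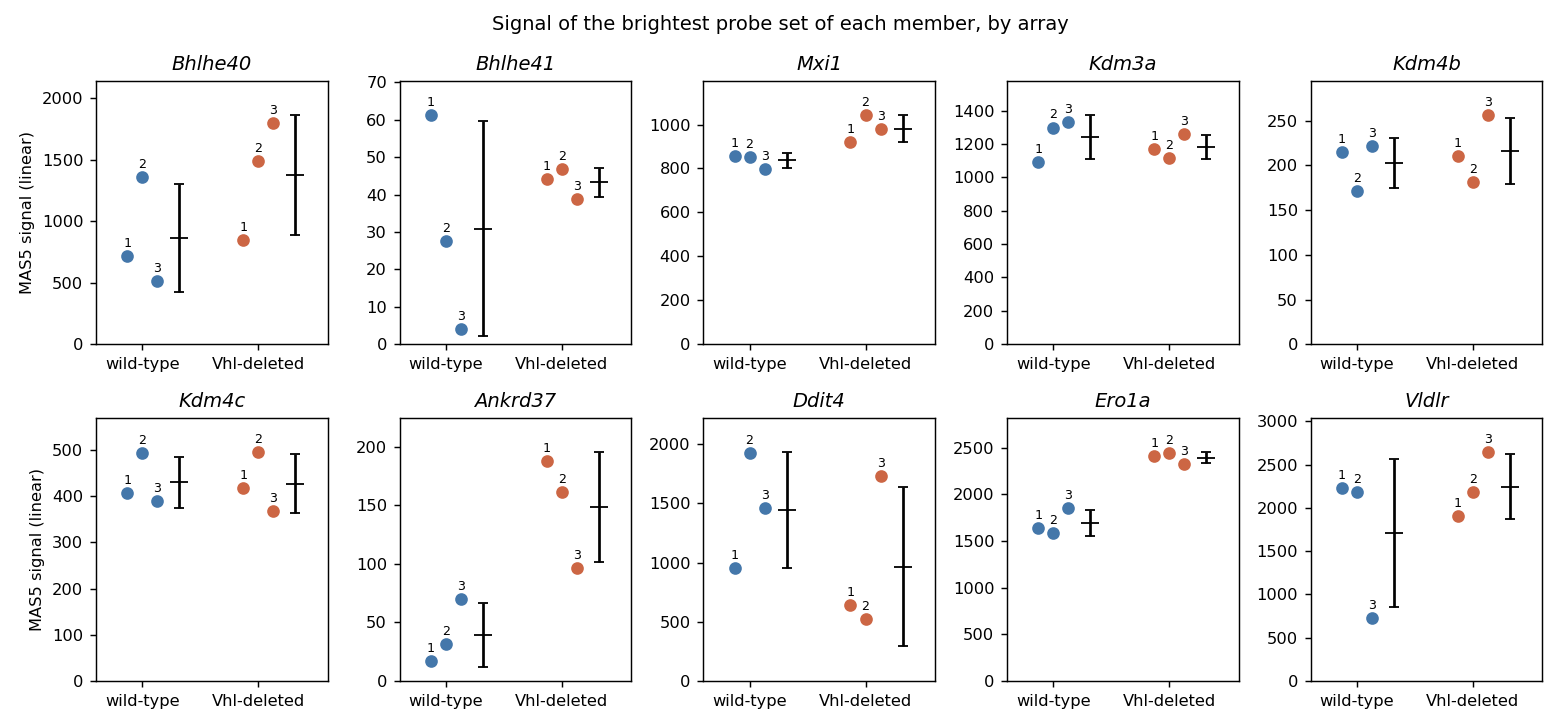
MAS5 signal on a linear scale of the brightest probe set of each member, with the 3 wild-type and 3 Vhl-deleted arrays as numbered points and the group mean with its SD as the bar beside them. Ero1a, Mxi1 and Ankrd37 show no overlap between groups, the 3 demethylase genes lie at the same height in both, and Bhlhe40, Ddit4 and Vldlr are spread widely within a group.

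The other HIF targets on the same arrays gave a reference for this pattern. A list of 50 such genes, from glycolysis, angiogenesis, oxygen sensing and related functions, had 42 members tested. Of these, 6 rose in Vhl-deleted glomeruli (Egln3, Ngb, Pfkl, Pkm, Bsg and Ppp1r3c), against 0.0717% of all genes tested, and none fell. A positive difference was found for 38 of the 42, against 50.9% of all genes. The groups did not overlap in the higher direction for 27 (5.04% of all genes) and in the lower direction for 2 (5.64%). The median log2 difference was 0.52, against 0.0043 over all genes. The difference between this list and the 8 tested members was not tested, and both lists were chosen with earlier results of these data known.

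**Figure D2:**
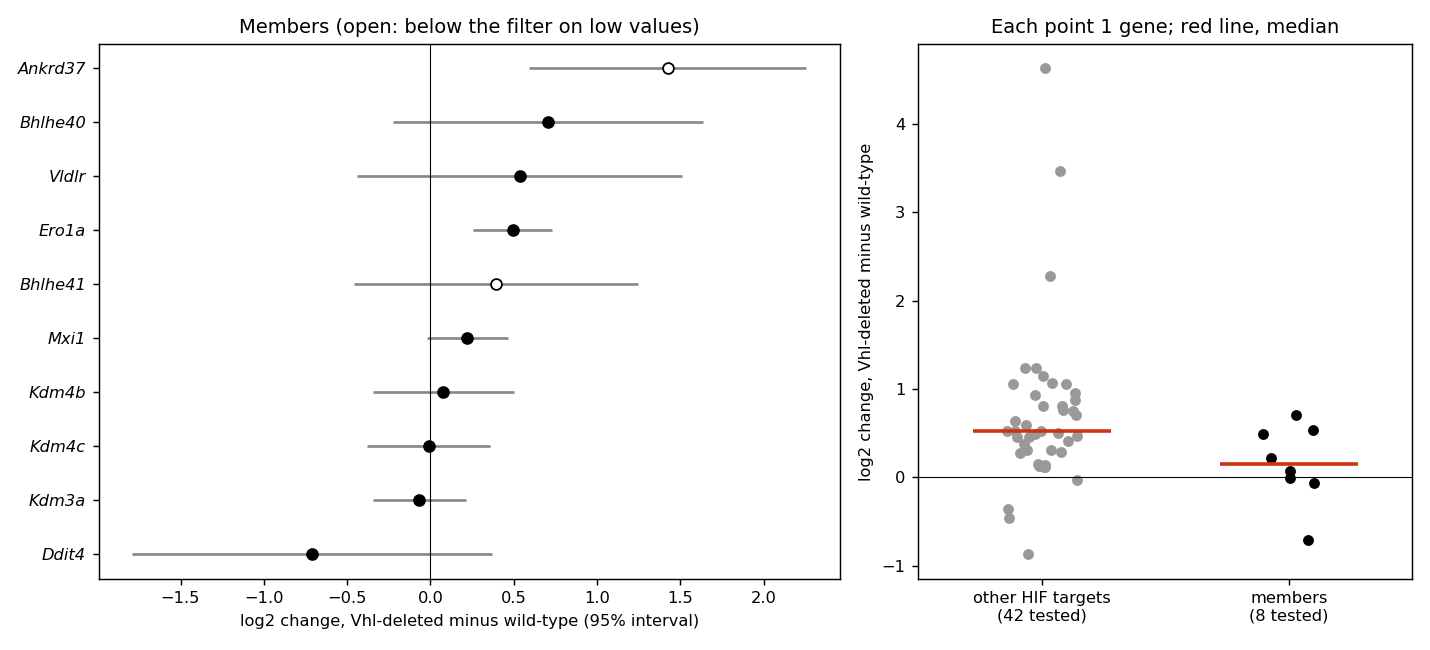
Left, log2 difference between Vhl-deleted and wild-type arrays with its 95% interval for each member (open symbols, from the fit over all probe sets, mark Bhlhe41 and Ankrd37, which were below the filter on low values). Right, the difference of each of 42 other HIF targets and of the 8 tested members, with red lines at their medians of 0.52 and 0.15.

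Bhlhe40 (DEC1) and Bhlhe41 (DEC2) encode basic helix-loop-helix repressors that bind E-boxes and act in the feedback of the circadian clock. Bhlhe40 read 717, 1360.3 and 512 in wild-type glomeruli, compared with 847, 1487 and 1797 in Vhl-deleted glomeruli, in the order of replicates 1 to 3. Wild-type replicate 2 lay above Vhl-deleted replicate 1, so the groups overlapped, and the high arrays were wild-type replicate 2 and Vhl-deleted replicates 2 and 3. The mean signal was 863 ± 442 (SD, n = 3) in the wild-type mice and 1377 ± 484 (SD, n = 3) in the mice lacking podocyte Vhl. The log2 difference was 0.70 (SE 0.39, 95% interval -0.23 to 1.64, adjusted p = 0.944). The within-group SD of Bhlhe40, 0.63 on the log2 scale, exceeded that of 94.5% of genes.

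The same 3 arrays stood apart in output genes of the clock. Dbp, a clock-driven transcription factor whose RNA varies strongly over the day, read 130.2, 2770.0 and 208 in the 3 control arrays, against 138, 1691 and 2959.7 in the 3 arrays after Vhl deletion, in the order of replicates 1 to 3. Arntl (BMAL1), a core activator of the clock whose RNA peaks at the opposite time of day, read 971, 352 and 1088 in controls and 1076, 653 and 356 when podocyte Vhl was deleted. Both genes thus split the arrays in the way Bhlhe40 did, Dbp high and Arntl low in wild-type replicate 2 and Vhl-deleted replicates 2 and 3. Nr1d1 (REV-ERB alpha), a clock repressor, read 291, 826 and 249 in wild-type glomeruli, compared with 32.8, 535 and 651 in Vhl-deleted glomeruli. The within-group spread of Dbp exceeded that of 99.98% of genes and that of Arntl 97.3%. The hour of day at which tissue was taken is not stated in the labels.

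With a clock index of each array as a covariate, an alternative chosen after seeing the data, the difference of Bhlhe40 was 0.66 with a narrower 95% interval of 0.33 to 0.99 (adjusted p = 0.4996). The index was the mean log2 level of Dbp, Tef, Hlf, Nr1d1 and Nr1d2 minus that of Arntl, Npas2, Nfil3 and Cry1. Single arrays and other settings also moved the value of Bhlhe40: it was 1.08 when wild-type replicate 2 was left out, 0.40 with wild-type replicate 3 left out instead, 0.42 with the mean of the tubule markers as a covariate and 0.26 with array weights. None of these settings brought it past the threshold. Among 20 listed clock genes 17 were tested and none passed, with 8 positive and 9 negative differences, a median of -0.04, and 2 with Vhl-deleted arrays below all wild-type arrays. One of these genes, Per1, a period gene that represses the clock, read 991, 1138 and 1485 in the wild-type mice and 884, 812 and 953 in the mice lacking podocyte Vhl (log2 difference -0.42). The other gene of those 2 was Rora, a nuclear receptor that activates Arntl, at 1492 to 2021 against 1275 to 1396 (-0.34). The paralogues of Per1 had differences of opposite sign, both with overlap: Per2 had a difference of -0.57 and Per3 of 0.46.

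**Figure D3:**
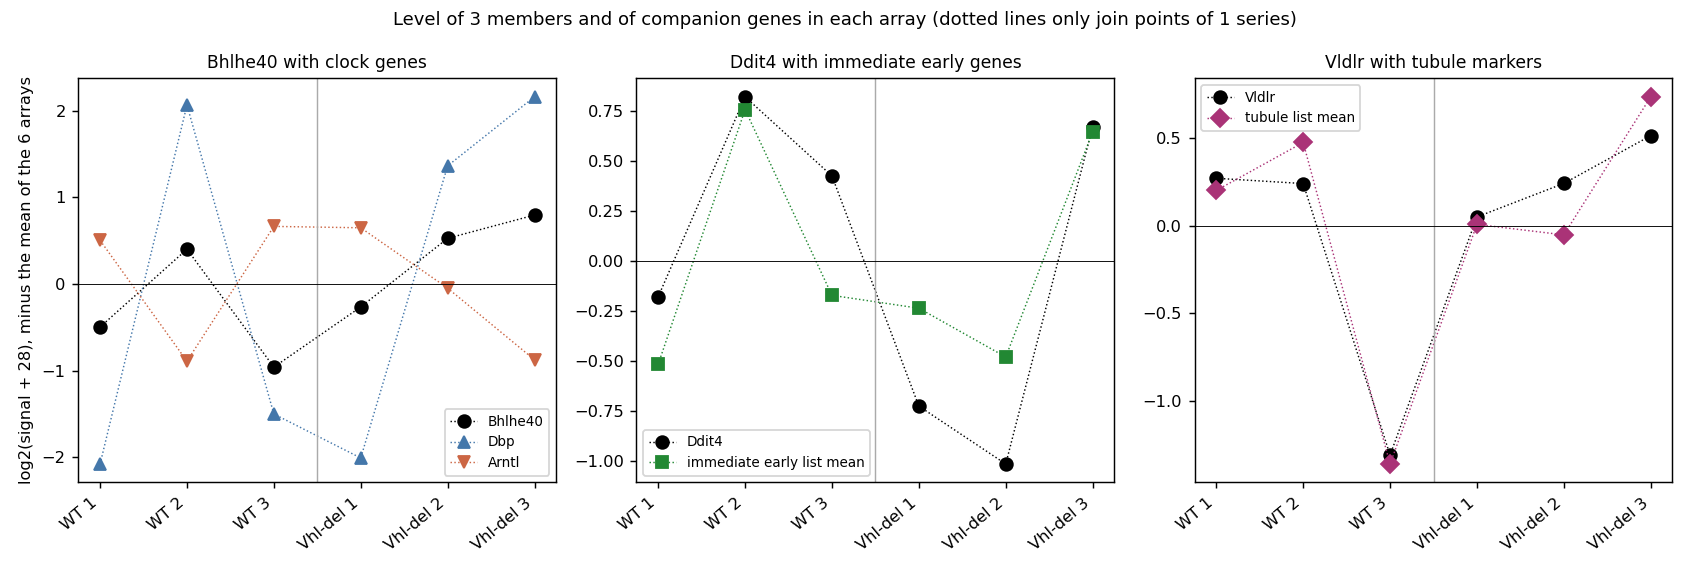
Log2(signal + 28) of Bhlhe40, Ddit4 and Vldlr in each array, minus the mean of the 6 arrays, beside Dbp and Arntl, the mean of the immediate early and stress list, and the mean of the tubule list. Bhlhe40 is high where Dbp is high and Arntl low, Ddit4 is high in wild-type replicate 2 and Vhl-deleted replicate 3 together with the immediate early list, and Vldlr is low in wild-type replicate 3 together with the tubule list.

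Bhlhe41 was dim, and its 2 probe sets went in opposite directions. The first (1421099_at) read 61.1, 27.5 and 4.07 in the 3 control arrays, against 44.1, 46.7 and 38.9 in the 3 arrays after Vhl deletion, with overlap (log2 difference 0.39, 95% interval -0.46 to 1.25). The second (1457096_at) read 15.9, 4.09 and 16.6 in controls and 2.45, 2.26 and 3.07 when podocyte Vhl was deleted, so that all Vhl-deleted arrays were lower (log2 difference -0.38, 95% interval -0.82 to 0.06). All of these signals lay below 96.4, the level of the filter, and gave no direction for the gene.

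Mxi1 encodes a partner of MAX that competes with MYC for E-boxes and represses MYC targets. Its brighter probe set (1450376_at) read 858, 853 and 798 in wild-type glomeruli, compared with 921, 1042 and 979.8 in Vhl-deleted glomeruli. All 3 Vhl-deleted arrays lay above all wild-type arrays, by a small margin. The mean was 837 ± 33.1 (SD, n = 3) against 981 ± 60.3 (SD, n = 3), with a log2 difference of 0.22 (SE 0.10, 95% interval -0.02 to 0.47, adjusted p = 0.944). Mxi1 was among the steadiest genes, since 5.35% of genes varied less within groups. The second probe set (1425732_a_at), at 245, 211 and 193 in the wild-type mice and 280.5, 144 and 294 in the mice lacking podocyte Vhl, overlapped, with a difference of 0.08 (95% interval -0.53 to 0.70).

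In the network of MYC, MAX and MXD proteins to which Mxi1 belongs, 14 of 18 listed genes were tested and none passed. Their differences were positive for 9 and negative for 5, with a median of 0.02. Mxd3, an MXD repressor, read 192, 161 and 22.2 in the 3 control arrays, against 193, 194 and 225 in the 3 arrays after Vhl deletion, a difference of 0.86 that rested on the low wild-type replicate 3. The groups of Mxd3 did not overlap, but only just, with wild-type replicate 1 at 191.9 and Vhl-deleted replicate 1 at 192.7. Mlxip, a glucose-responsive partner of MLX, had a difference of -0.30 and Mycn, a MYC family activator, 0.17.

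The demethylases Kdm3a, Kdm4b and Kdm4c remove methyl groups from lysines of histone H3 with oxygen and 2-oxoglutarate as co-substrates, and their genes are known HIF targets in cultured cells. Kdm3a (JMJD1A) read 1094, 1299 and 1334 in controls and 1172, 1115 and 1260.1 when podocyte Vhl was deleted. The ranges overlapped, with means of 1242 ± 129 (SD, n = 3) and 1182 ± 73.1 (SD, n = 3). The log2 difference was -0.07 (95% interval -0.34 to 0.21, adjusted p = 0.947), with the upper end of the interval at 1.16-fold.

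Kdm4b read 215, 171 and 222 in wild-type glomeruli, compared with 211, 182 and 256 in Vhl-deleted glomeruli. Its log2 difference was 0.08 (95% interval -0.35 to 0.50, adjusted p = 0.960), so that the interval reached up to 1.42-fold. Kdm4c read 407, 493 and 390.0 in the wild-type mice and 418, 496 and 369 in the mice lacking podocyte Vhl, with a difference of -0.01 (95% interval -0.38 to 0.36, adjusted p = 0.993) and an upper bound of 1.28-fold. Both genes overlapped almost fully between groups, and the sign of either difference turned when single arrays were left out. These intervals are for whole glomeruli, in which podocytes are a part of the cells.

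The demethylases were set beside the wider family of JmjC-domain proteins, with 19 of 21 listed genes tested. None passed, 6 had positive and 13 negative differences, and the median was -0.10. Kdm3b, the closest relative of Kdm3a, had a difference of -0.16 (95% interval -0.53 to 0.21), and Kdm4a, a relative of Kdm4b and Kdm4c, -0.10 (95% interval -0.57 to 0.36). Hif1an (FIH), a JmjC enzyme that hydroxylates HIF itself and blocks its coactivator binding, read 725, 777 and 847 in the 3 control arrays, against 543, 599 and 662 in the 3 arrays after Vhl deletion. It was the family member whose groups did not overlap, at a difference of -0.37 (adjusted p = 0.870). Kdm7a had a difference of -0.21 and Kdm6b, a demethylase that removes a Polycomb mark, -0.30.

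Ankrd37 encodes a small ankyrin-repeat protein. It was the member with the largest log2 difference of the 10, at low signal. The probe set read 17.3, 31.1 and 69.8 in controls and 188, 161 and 96.3 when podocyte Vhl was deleted. Every Vhl-deleted array was above every wild-type array, with wild-type replicate 3 and Vhl-deleted replicate 3 nearest to each other. The mean was 39.4 ± 27.2 (SD, n = 3) against 148 ± 47.1 (SD, n = 3), a ratio of mean signals of 3.76.

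Since Ankrd37, with a mean signal of 93.9, lay below the filter, which is set on the mean log2 level and corresponds to a signal of 96.4, it was tested in a fit over all 45037 probe sets. There its log2 difference was 1.42 (SE 0.36, 95% interval 0.59 to 2.26), or 2.68-fold (1.51 to 4.77), with an adjusted p of 0.825. By size of the difference it stood 30th of 45037 probe sets, and by p 225th. In that fit 0.0355% of probe sets passed the threshold, and 4.81% had all Vhl-deleted arrays above all wild-type arrays. With each array left out in turn the difference was 1.18 to 1.73. It depended on the pseudocount, as low values do, from 0.83 with 100 to 2.05 with 1, and it did not pass in any setting run. Detection calls were not used here, so whether the wild-type values exceed background is unknown.

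Ero1a encodes the oxidase that restores protein disulfide isomerase in the ER, using oxygen as the final electron acceptor. Its brightest probe set (1449324_at) read 1643, 1591 and 1854 in wild-type glomeruli, compared with 2414, 2441 and 2326 in Vhl-deleted glomeruli. The groups were apart, and both were tight: the within-group SD was 0.085 on the log2 scale, and 8.85% of genes varied less. The mean was 1696 ± 139 (SD, n = 3) against 2394 ± 59.9 (SD, n = 3). The log2 difference was 0.49 (SE 0.10, 95% interval 0.26 to 0.73), or 1.41-fold (1.19 to 1.66). Ero1a stood 50th of 11159 genes by p, with an adjusted p of 0.379.

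Its call depended on the model. With array weights, which gave wild-type replicate 3 the lowest weight at 0.263, Ero1a passed the threshold (log2 difference 0.55, adjusted p = 0.0374). It also passed with the mean of the tubule markers as a covariate (0.54, adjusted p = 0.0492). Over the 20 alternatives that kept this probe set or averaged it with the others, the adjusted p ran from 0.0374 to 0.992 and the difference from 0.36 to 0.56. The leukocyte markers, which like Ero1a and Ankrd37 did not overlap in their summed signal between groups, were not used as a covariate, and their part in these differences was not tested.

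The other 2 probe sets of Ero1a gave smaller differences. The second (1419030_at) read 836, 893 and 1204 in the wild-type mice and 1273, 1232 and 1107 in the mice lacking podocyte Vhl, a difference of 0.31 (95% interval -0.05 to 0.66). The third (1419029_at) read 646, 559 and 762 in the 3 control arrays, against 867, 814 and 698 in the 3 arrays after Vhl deletion, a difference of 0.27 (95% interval -0.08 to 0.62). In both, wild-type replicate 3 exceeded Vhl-deleted replicate 3, and that pair alone made the groups overlap. The mean of the 3 probe sets had a difference of 0.36 (adjusted p = 0.919). Probe sets of a gene share its RNA and are not replicates.

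**Figure D4:**
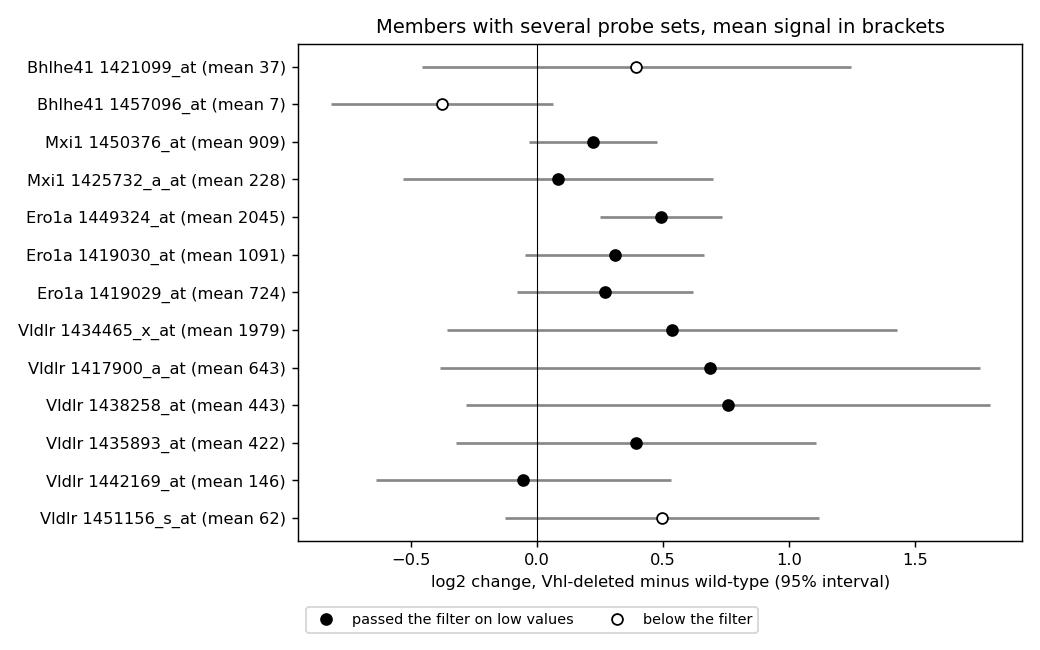
Log2 difference with its 95% interval for every probe set of the 4 members that have several, from the fit over all probe sets, with mean signal in brackets. All 3 Ero1a probe sets and both of Mxi1 lie above 0, 5 of the 6 of Vldlr do, and those of Bhlhe41 lie on opposite sides of 0.

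The genes that work with Ero1a in oxidative folding did not pass. All 20 listed genes were tested, with 9 positive and 11 negative differences and a median of -0.0032. Ero1b, the paralogue of Ero1a that is most abundant in secretory cells, read 297, 373 and 467 in controls and 493, 398 and 367 when podocyte Vhl was deleted, with overlap (difference 0.15, 95% interval -0.31 to 0.61). P4hb, the protein disulfide isomerase that ERO1 oxidises, had a difference of 0.17 with overlap. Txndc5, a further disulfide isomerase, had a difference of 0.17 without overlap, from 1319 to 1416 in wild-type glomeruli, compared with 1423 to 1637 in Vhl-deleted glomeruli. Pdia4, a chaperone-like isomerase of the unfolded protein response, had a difference of -0.62 that came from a value of 2030.4 in wild-type replicate 3, against 440.4 to 671 in the other 5 arrays.

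Ddit4 (REDD1) encodes a stress-induced protein that inhibits mTORC1, the kinase complex that drives growth. It had the largest negative difference among the tested members and the widest spread. Its signal was 951, 1928 and 1459 in the wild-type mice and 642, 521 and 1736 in the mice lacking podocyte Vhl. Vhl-deleted replicates 1 and 2 were below all wild-type arrays, but Vhl-deleted replicate 3 was above wild-type replicates 1 and 3. The mean was 1446 ± 489 (SD, n = 3) against 966 ± 669 (SD, n = 3), a log2 difference of -0.71 (SE 0.46, 95% interval -1.79 to 0.37, adjusted p = 0.944). Its within-group SD of 0.73 exceeded that of 96.2% of genes.

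The 2 arrays highest in Ddit4, wild-type replicate 2 and Vhl-deleted replicate 3, were also the 2 highest in a list of immediate early and stress genes, which respond within minutes to many stimuli. The mean log2 level of that list was 11.5, 12.8 and 11.8 in the 3 control arrays, against 11.8, 11.5 and 12.7 in the 3 arrays after Vhl deletion, in the order of replicates 1 to 3. Its summed signal was 93195 to 198195 in controls and 91153 to 187638 when podocyte Vhl was deleted. With the list mean as a covariate, the difference of Ddit4 was -0.66 with a 95% interval of -1.17 to -0.15 (adjusted p = 0.813). Leaving out Vhl-deleted replicate 3 gave -1.22 (95% interval -1.96 to -0.49, adjusted p = 0.954), leaving out Vhl-deleted replicate 2 gave -0.38, and leaving out the second wild-type array gave -0.48. The difference was negative in every setting run and passed in none of them.

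In the list itself, 21 of 24 genes were tested and none passed, with 8 positive and 13 negative differences and a median of -0.06. Its genes of lowest p were heat shock genes. Dnajb1, a co-chaperone of HSP70, read 4983, 5497 and 5565 in wild-type glomeruli, compared with 3972, 3136 and 3526 in Vhl-deleted glomeruli (difference -0.59, adjusted p = 0.346). Hspa1b and Hspa1a, near-identical genes for inducible HSP70 whose probe sets may share RNA, had differences of -0.93 and -1.55. Of all 3, every Vhl-deleted array was below every wild-type array, unlike Ddit4. Ier3, an early-response gene named after its values were seen, had the largest difference of the list and lay higher in Vhl-deleted arrays, at 1764, 5557 and 1479 against 6968, 6701 and 10505, without overlap (1.68, adjusted p = 0.739).

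Of the genes of mTORC1 and its inhibitors, 21 of 22 listed were tested and none passed, with 8 positive and 13 negative differences and a median of -0.01. Sesn1, a sestrin that like Ddit4 restrains mTORC1, read 1708, 1949 and 2297 in the wild-type mice and 1210.3, 1904 and 999 in the mice lacking podocyte Vhl. It was lower in Vhl-deleted replicates 1 and 3 and overlapped through replicate 2, with a difference of -0.57 (95% interval -1.13 to -0.0011, adjusted p = 0.944). Ddit4l, the paralogue of Ddit4, had a difference of 0.02 (95% interval -0.52 to 0.56). Tbc1d7, a subunit of the TSC complex, had 0.33, and Prkaa1, a catalytic subunit of AMPK, -0.21.

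Vldlr encodes a lipoprotein receptor that takes up triglyceride-rich lipoproteins and also binds reelin. It had 6 probe sets, of which 5 passed the filter. The brightest (1434465_x_at) read 2229.6, 2183 and 727 in the 3 control arrays, against 1909, 2184 and 2644 in the 3 arrays after Vhl deletion. Wild-type replicate 3 was low, and the other 2 wild-type arrays lay within the Vhl-deleted range. The mean was 1713 ± 855 (SD, n = 3) against 2246 ± 371 (SD, n = 3), a log2 difference of 0.53 (SE 0.41, 95% interval -0.44 to 1.51, adjusted p = 0.944).

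Wild-type replicate 3 was the lowest of the 6 arrays in 6 of 6 probe sets of Vldlr. In the dimmest, 1451156_s_at, it did not stand apart, at 43.3 beside 44.1 in wild-type replicate 1. For 1417900_a_at the signals were 642, 751 and 180.3 in controls and 624, 624 and 1034 when podocyte Vhl was deleted (difference 0.69). For 1438258_at they were 471, 469 and 115 against 463, 480.2 and 659 (difference 0.76). In both, as in the brightest, the first 2 wild-type arrays lay within or beside the Vhl-deleted range. For 1435893_at the difference was 0.39, with 525, 413 and 192 against 507, 458 and 439. For 1442169_at it was -0.06, with 168, 184 and 102 against 127, 133 and 165. The dimmest, 1451156_s_at, below the filter, was higher without overlap, at 44.1, 49.9 and 43.3 against 60.6, 63.7 and 109.8 (difference 0.50).

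Tubule markers had the same low array. The mean log2 level of the 26 tested was 12.1, 12.4 and 10.6 in wild-type glomeruli, compared with 11.9, 11.9 and 12.7 in Vhl-deleted glomeruli, in the order of replicates 1 to 3, and all 26 had positive differences, with a median of 0.46 and none past the threshold. Miox, a proximal tubule enzyme, had a difference of 0.77 and Umod, the uromodulin gene of the thick ascending limb, 0.38. With the tubule mean as a covariate the difference of Vldlr was 0.15 (95% interval -0.16 to 0.47). Without wild-type replicate 3 it was 0.01 (95% interval -0.33 to 0.36), and with array weights 0.02. The value thus rested on that array.

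Of the lipoprotein receptor family with its ligands and adaptors, 14 of 20 listed genes were tested and none passed, with 10 positive and 4 negative differences and a median of 0.14. Thbs1, a thrombospondin that binds the receptors, read 804, 913 and 749 in the wild-type mice and 1045, 945 and 1168 in the mice lacking podocyte Vhl, without overlap (difference 0.35, adjusted p = 0.944). Lrp1, a large endocytic receptor of the family, read 987, 1077 and 1186 in the 3 control arrays, against 1210.2, 1336 and 1225 in the 3 arrays after Vhl deletion, also without overlap (0.21). Lpl, the lipase that releases fatty acids from the lipoproteins Vldlr binds, read 7015, 11841 and 22626 in controls and 5398, 5993 and 11996 when podocyte Vhl was deleted, with overlap (-0.76, 95% interval -1.85 to 0.34). Lrp8, the other reelin receptor, was below the filter, at 48.5, 50.8 and 49.6 against 61.2, 59.5 and 16.0 (-0.15).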

How the data were processed

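Per the labels, glomerular RNA of 3 wild-type and 3 Vhl-deleted mice was measured on 1 array each. What the authors deposited are intensities on a linear scale, with a single MAS5 signal for a probe set on an array; MAS5 is named in the submitters' processing notes without a version. The values show that the authors' scaling set each array's mean, without the lowest and highest 2%, to 500. Array medians were 94.6 to 107.5. Detection calls were not used here, and any background step before deposit bears most on low values. The number of arrays limits the precision.

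From the deposited intensities log2(signal + 28) was computed, 28 being the 25th percentile of all values. Probe sets with 1 gene symbol in GEO's platform annotation were used (34945 of 45037; 932 had several and 9160 none), with 34741 updated through the gene identifier in the RefSeq table of GRCm38.p6. The upper 50% by mean level were kept, each gene by its brightest probe set, which left 11159 genes. The test was that of limma 3.58.1, run in R 4.3.3 (lmFit, eBayes with trend) and Benjamini-Hochberg adjustment at 0.05, tested on simulated data. Ankrd37, Bhlhe41 and single probe sets were taken from the same fit over all 45037 probe sets. Intervals are 95%.

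The members and gene lists were chosen with earlier results of these data known. The text names all 10 members with every probe set, Vhl, chosen relatives and clock genes, and from each list of related genes those past the threshold or otherwise the 3 of lowest p. For cell marker lists the 2 of highest mean signal were eligible, and Cldn16, Ier3 and the chosen values of single arrays were named after their values were seen. Alternatives changed the scaling, pseudocount, filter, probe set rule, variance model, weights, covariates and arrays used.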

Additional observations from a re-analysis of the deposited data

How the results depend on the processing

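Between 8 and 12 genes of all genes tested passed the threshold under other scalings, pseudocounts, filters and probe set rules, against 9 in the analysis reported, and 7 or 11 under other variance models. Array weights gave 33 genes, the mean of the tubule markers as a covariate 37, and the immediate early list or the clock index, the latter chosen after seeing the data, 5 each. With the replicate number as a block 1 gene passed, and no member did; same-numbered arrays had correlations of deviations of -0.0203, -0.41 and -0.513 and none of the 6 arrays correlated best with its own number, so the numbers were not taken as pairs. Leaving out 1 array at a time gave 1 to 12 genes. Of the members, 1 (Ero1a) passed with array weights and 1 (Ero1a) with the tubule covariate, and 0 passed in every other setting run, including each array left out (lowest and highest 0). The causes were not tested. The median difference of the members was 0.08 to 0.18 with an array left out. Kdm4b and Kdm4c changed sign with single arrays left out, where Kdm4b ran from -0.037 (Vhl-deleted replicate 3 out) to 0.18 and was -0.025 with wild-type replicate 2 out. Kdm4c ran from -0.12 to 0.086 (wild-type replicate 2 out), with 0.00045 and 0.084 when Vhl-deleted replicates 1 and 3 were left out. Among probe sets of Vldlr, 1442169_at had the opposite sign, at -0.055. Bhlhe40, Mxi1, Kdm3a, Ddit4, Ero1a, Vldlr and Ankrd37 kept their sign in every setting run on the reported probe set. With 3 arrays in each group, the reported 95% intervals included 0 for every member except Ankrd37 and the brightest probe set of Ero1a. Signals below the filter, those of Bhlhe41 and Ankrd37, carry the least information.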
